A study of Mus musculus with 3 samples.

Results

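The enzymes that turn arachidonic acid into prostaglandins and leukotrienes, together with an enzyme that breaks down platelet-activating factor, were followed across the leukocytes of 4T1 mammary tumors. The 9 genes were Ptgs1, Ptgs2, Ptges, Hpgds, Alox5, Alox5ap, Lta4h, Ltc4s and Pla2g7, out of 32285 genes in the count matrices. They were chosen by symbol, with earlier results of these data known. All 9 were found in the 3 libraries, and their UMIs, the random tags that count each captured transcript once, were summed per library in cells sorted by marker counts into 7 gates.

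Prostaglandins and leukotrienes are short-lived lipid signals made from arachidonic acid that phospholipases release from membranes. The cyclooxygenases COX-1 and COX-2 make prostaglandin H2, which terminal synthases turn into prostaglandin E2, prostaglandin D2 and other prostanoids, and 5-lipoxygenase with its activating protein FLAP makes leukotriene A4, which is turned into leukotriene B4 or leukotriene C4. In tumors, COX-2 and prostaglandin E2 are known for their part in suppressive myeloid cells, leukotriene B4 is known as a neutrophil attractant, and prostaglandin D2 and leukotriene C4 are classic products of mast cells.

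All 3 groups came from female BALB/c mice, 6 to 8 weeks old, that received 200000 tumor cells in the mammary fat pad and were collected on day 14. Vehicle mice carried 4T1-luc tumors with intact p38α and received DPBS, and p38i mice carried the same tumors and received the p38 inhibitor LY2228820 by gavage at 30 mg/kg each day for 10 days from day 4. The p38KO mice carried tumors of the line p38a-KO-H9, 4T1 cells in which CRISPR-Cas9 had inactivated p38α, with no treatment named in the labels. The knockout is a single clone and is limited to the tumor cells, so the level of its target gene, Mapk14, in sorted leukocytes does not check the label, whereas the inhibitor was given to the whole mouse. Each group was 1 library of live CD45+ cells pooled from the tumors of 3 mice, so no difference between groups has a replicate check, and clone, treatment and library cannot be told apart.

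After the filter for depth, 3820 cells of the vehicle, 4793 of the p38i and 3859 of the p38KO library were kept, with 20795195, 24210342 and 24374173 UMIs. Ptprc, which encodes CD45, had a UMI in 90.5%, 91.0% and 89.2% of these cells. The neutrophil gate held 1813, 2139 and 1640 cells, the monocyte gate 466, 755 and 410, the macrophage gate 171, 191 and 577, the T gate 562, 668 and 542, the NK gate 118, 118 and 125, the DC gate 20, 42 and 46, and the mast gate 3, 6 and 95, in the order vehicle, p38i and p38KO that is kept below. Of 8 markers per type that no gate used, 8 were highest in their own gate for neutrophils, monocytes, T cells and DCs, 7 for NK and mast cells, and 6 for macrophages. Cells without enough marker counts, 667, 874 and 424 of them, were ungated. The libraries shared 4 or 5 barcodes of kept cells pairwise, and doublets were not removed. The median share of mitochondrial UMIs was 0.671%, 0.968% and 2.10%.

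Sequences are shown for the gene that carried the p38i result and for Ptgs1 and Hpgds, highest in the macrophage and mast gates. They let a reader see what lies at the start sites. Of the 9 genes, 8 had a RefSeq promoter window on GRCm38.p6, from 250 bases before to 50 after the start, and Alox5ap had none. Capitals mark matches to 9 motifs searched on both strands: the cyclic AMP response element core TGACG, the E box CACGTG, the C/EBP palindrome TTGCGCAA, AP-1 TGANTCA, an NF-kB motif, the TATA box TATAAA, the GC box GGGCGG, PU.1 GAGGAAGT and the GATA-factor motif TGATAA. The Ptgs2 window lay at chr1:150099781-150100080 on the plus strand, the Ptgs1 window at chr2:36230176-36230475 on the plus strand and the Hpgds window at chr6:65144681-65144980 on the minus strand.
Ptgs2: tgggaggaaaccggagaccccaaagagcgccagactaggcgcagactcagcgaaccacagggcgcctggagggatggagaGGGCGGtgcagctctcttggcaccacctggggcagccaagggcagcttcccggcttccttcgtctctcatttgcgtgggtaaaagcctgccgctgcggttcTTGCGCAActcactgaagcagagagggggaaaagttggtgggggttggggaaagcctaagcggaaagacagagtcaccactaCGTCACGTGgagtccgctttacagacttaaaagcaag
Ptgs1: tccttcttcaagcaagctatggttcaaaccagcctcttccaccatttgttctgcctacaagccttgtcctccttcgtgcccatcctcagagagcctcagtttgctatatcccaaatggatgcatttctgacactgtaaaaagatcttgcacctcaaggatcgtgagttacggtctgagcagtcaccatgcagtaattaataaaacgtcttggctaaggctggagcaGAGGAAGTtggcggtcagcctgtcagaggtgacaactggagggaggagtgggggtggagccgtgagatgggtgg
Hpgds: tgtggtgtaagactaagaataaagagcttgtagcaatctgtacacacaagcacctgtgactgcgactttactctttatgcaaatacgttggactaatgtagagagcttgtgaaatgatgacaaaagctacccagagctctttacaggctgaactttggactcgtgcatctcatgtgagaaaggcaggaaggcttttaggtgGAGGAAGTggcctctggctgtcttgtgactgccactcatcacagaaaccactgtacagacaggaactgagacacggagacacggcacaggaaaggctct

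The Ptgs2 window held 4 of the 9 motifs. The C/EBP palindrome, found in 0.183% of 32851 promoter windows, began 69 bases before the start. The cyclic AMP response element core, on the other strand, began 14 bases after the start and overlapped the E box by 2 bases, and the GC box began 170 bases before it. These letters occurred in 20.8%, 7.15% and 35.7% of all windows. Ptgs1 and Hpgds, both highest in macrophage and mast cells, each held the PU.1 letters on the sense strand, against 3.20% of all windows. They began 24 and 49 bases before the RefSeq start. The Hpgds gene span given below, from GENCODE, begins upstream of that RefSeq start, so the Hpgds letters lie inside the span. The Ltc4s and Lta4h windows held none of the 9 motifs, while Ptges, Alox5 and Pla2g7 held only the GC box. AP-1, NF-kB, TATA box and GATA letters, in 7.81%, 0.411%, 13.6% and 9.05% of all windows, were in none of the 8. A match is a run of letters and not a measured binding site.

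The Ptgs2 transcript also differed from the others in its 3′ untranslated region. In the transcript Ptgs2-201 (GENCODE M21, GRCm38) this region of 2445 bases held 14 ATTTA and 6 TATTTAT, the letters of AU-rich elements. Of 16360 genes, 25.7% had at least 1 TATTTAT and 0.391% had as many as Ptgs2 or more. For ATTTA the share with as many or more was 2.54%. The median length of the region was 822 bases, and these shares do not allow for length. Alox5 held 1 TATTTAT and the other 7 members held 0, Hpgds with 2631 bases among them. Alox5, Alox5ap and Hpgds each held 2 ATTTA, Pla2g7 held 1 and the remaining members 0. Transcripts with AU-rich elements are often short-lived, and the p38 pathway is known to stabilise several of them, Ptgs2 mRNA included. RNA stability was not measured here. The 30 bases with the most ATTTA begin at base 12 of the region, at chr1:150105794-150105823 on the plus strand, and hold 4, in capitals.
Ptgs2 AU-rich window: ccatATTTATTTATTTAtgtgaagaATTTA

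The cyclooxygenase genes lay in different cells. Ptgs2, on chromosome 1 at 150100031 to 150108227 on the plus strand, encodes the inducible COX-2 and was a neutrophil and monocyte transcript. Its level in the neutrophil gate, as counts per 1000000 UMIs of the gate (CPM) with the 95% interval of counting error, was 472 (455 to 491), 291 (278 to 304) and 452 (432 to 472). In the monocyte gate it was 195 (183 to 209), 79.8 (73.1 to 87.0) and 103 (93.0 to 114), and in the macrophage gate 33.5 (27.8 to 40.2), 12.9 (9.41 to 17.4) and 12.7 (10.5 to 15.1). The order neutrophil, monocyte, macrophage held in each library with intervals that did not overlap. No Ptgs2 UMI was found in the DC or mast gate of any library, which at a limit of 3 counts allows up to 9.65, 5.69 and 4.18 CPM in DCs and 6.53 CPM in the p38KO mast gate.

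Cells were thinned to 1500 UMIs each to compare shares at equal depth. Of the neutrophil gate 34.9%, 27.5% and 31.3% of cells then had a Ptgs2 UMI, and of the monocyte gate 17.4%, 10.99% and 12.2%. T cells gave 0.356%, 1.5% and 0.553%, below the neutrophil and monocyte shares. Macrophages gave 3.51%, 1.05% and 2.08%, in p38i below T cells. The T gate allowed at most 1 UMI of Csf3r + Cxcr2, so its shares give no level for neutrophil doublets in the monocyte gate. Of the 466, 755 and 410 monocyte-gate cells, 273, 478 and 230 had no such UMI. The Ptgs2 level in monocytes was 41.3%, 27.4% and 22.8% of that in neutrophils, while S100a9, a defining neutrophil transcript, was at 5.24%, 3.96% and 1.92%. Other neutrophil markers varied in this. With the libraries pooled, Clec4d was at 354 CPM in monocytes against 1275 in neutrophils and Il1r2 at 143 against 949. Retnlg was at 126 against 2915 and G0s2 at 175 against 5058. The part of neutrophil RNA in the monocyte Ptgs2 values was not tested. Before thinning, 44.4%, 35.9% and 38.9% of neutrophils had a Ptgs2 UMI.

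Ptgs1, on chromosome 2 at 36230426 to 36252272 on the plus strand, encodes the constitutive COX-1 and was highest in macrophages, at 139 (127 to 152), 159 (146 to 173) and 222 (212 to 232) CPM. The mast gate followed with 104, 120 and 89.2 CPM from 1, 3 and 41 counts, apart from macrophages by its interval only in the p38KO library. Monocytes had 14.3, 9.69 and 15.5 CPM and neutrophils 5.10, 10.8 and 7.76. Macrophages gave 81.6%, 77.0% and 93.7% of all Ptgs1 UMIs, whereas neutrophils gave 59.0%, 61.5% and 70.3% of all Ptgs2 UMIs. The level of Ptgs1 in DCs was 0 in each library.

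The terminal prostaglandin synthases lay apart from each other, with Ptges highest of the 7 gates in monocytes and Hpgds in macrophages and mast cells. Ptges, on chromosome 2 at 30889471 to 30929863 on the minus strand, encodes the inducible prostaglandin E synthase mPGES-1 and had only 26, 43 and 42 UMIs in the whole libraries. Monocytes held 17, 19 and 23 of them, at 3.74 (2.18 to 5.99), 2.92 (1.76 to 4.56) and 6.14 (3.89 to 9.21) CPM, and the neutrophil gate held 2, 3 and 8. Ungated cells held 5, 14 and 2, in p38i at 4.78 (2.62 to 8.02) CPM. In p38i the monocyte interval overlapped that of macrophages, at 1.47 (0.478 to 3.43) CPM. At this depth few comparisons of Ptges could be made, since most gates held fewer than 20 counts.

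Hpgds, on chromosome 6 at 65117293 to 65144908 on the minus strand, encodes hematopoietic prostaglandin D synthase. In the macrophage gate its level was 105 (94.2 to 116), 95.6 (85.5 to 107) and 167 (159 to 175) CPM. In the mast gate it was 208 (25.2 to 752), 280 (113 to 578) and 207 (167 to 253) CPM, from 2, 7 and 95 counts. The intervals of these gates overlapped in the vehicle and p38KO libraries. The other 5 gates lay between 0 and 7.76 CPM. Macrophages held 85.2%, 71.3% and 89.2% of the Hpgds UMIs. After thinning, 11.7%, 15.2% and 19.6% of macrophages had a Hpgds UMI, against 0.534%, 0.749% and 0.922% of T cells.

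Of the genes for making leukotriene A4, Alox5 was highest in the mast gate and Alox5ap extended over all myeloid gates. Alox5, on chromosome 6 at 116410077 to 116461178 on the minus strand, encodes 5-lipoxygenase and reached 104 (2.64 to 580), 280 (113 to 578) and 333 (282 to 390) CPM in the mast gate, from 1, 7 and 153 counts. Neutrophils had 35.7 (30.9 to 40.9), 39.3 (34.7 to 44.4) and 44.3 (38.4 to 50.9) CPM, while monocytes and macrophages lay between 3.13 and 7.64. The 95 mast cells of the p38KO library held 32.1% of its Alox5 UMIs. C1qb, a macrophage transcript, was in that mast gate at 13.7% of its macrophage level, with 254 counts, against 0 counts in the mast gates of the vehicle and p38i libraries.

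Alox5ap, on chromosome 5 at 149264767 to 149288153 on the plus strand, encodes FLAP, which presents arachidonic acid to 5-lipoxygenase, and was present in all myeloid gates. Neutrophils had 1066, 1095 and 870 CPM, monocytes 801, 830 and 745, DCs 614, 560 and 659, macrophages 294, 341 and 320, and the mast gate 1041, 1242 and 1079. T and NK cells lay between 24.4 and 57.1 CPM. Neutrophils stood above monocytes and macrophages below DCs in each library without overlap of their intervals, while T and NK cells could not be set apart. After thinning, 65.1%, 65.0% and 61.8% of neutrophils had an Alox5ap UMI and 1.96%, 2.54% and 2.03% of T cells.

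The enzymes that use leukotriene A4 contrasted in breadth. Lta4h, on chromosome 10 at 93453411 to 93484875 on the plus strand, encodes the hydrolase that makes leukotriene B4 and was found in lymphoid as in myeloid cells. NK cells had 47.4, 44.0 and 39.9 CPM, T cells 36.6, 40.0 and 40.1, monocytes 30.1, 31.2 and 25.1, macrophages 30.1, 24.4 and 25.6, and neutrophils 14.8 (11.8 to 18.3), 18.8 (15.7 to 22.4) and 9.98 (7.28 to 13.3). Neutrophils were the lowest of the gates with a Lta4h count in each library, and all neighbours in the order overlapped in their intervals.

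Ltc4s, on chromosome 11 at 50236461 to 50238616 on the minus strand, encodes leukotriene C4 synthase and was sparse outside the p38KO library, with 68, 122 and 548 UMIs in all kept cells. In the macrophage gate it had 25, 68 and 449 counts, or 7.11 (4.598 to 10.5), 20.01 (15.5 to 25.4) and 47.0 (42.7 to 51.5) CPM. The intervals of the 3 libraries did not overlap. The p38KO mast gate had 63.1 (42.2 to 90.6) CPM from 29 counts. DCs had 9.65, 9.49 and 8.36 CPM, monocytes 4.18, 3.08 and 4.00, and neutrophils 1.23, 1.51 and 7.54. T cells held 0, 2 and 0 counts.

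Pla2g7, on chromosome 17 at 43568098 to 43612201 on the plus strand, encodes the acetylhydrolase that breaks down platelet-activating factor, and its level was close in all 3 large myeloid gates. It was 500, 449 and 505 CPM in neutrophils, 439, 370 and 395 in monocytes and 402, 343 and 345 in macrophages. T cells had 15.7, 25.0 and 7.51 CPM. In the p38KO mast gate it was 191 (154 to 236) CPM from 88 counts, and in the vehicle mast gate 0 counts of 9606 UMIs were found.

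**Figure D1:**
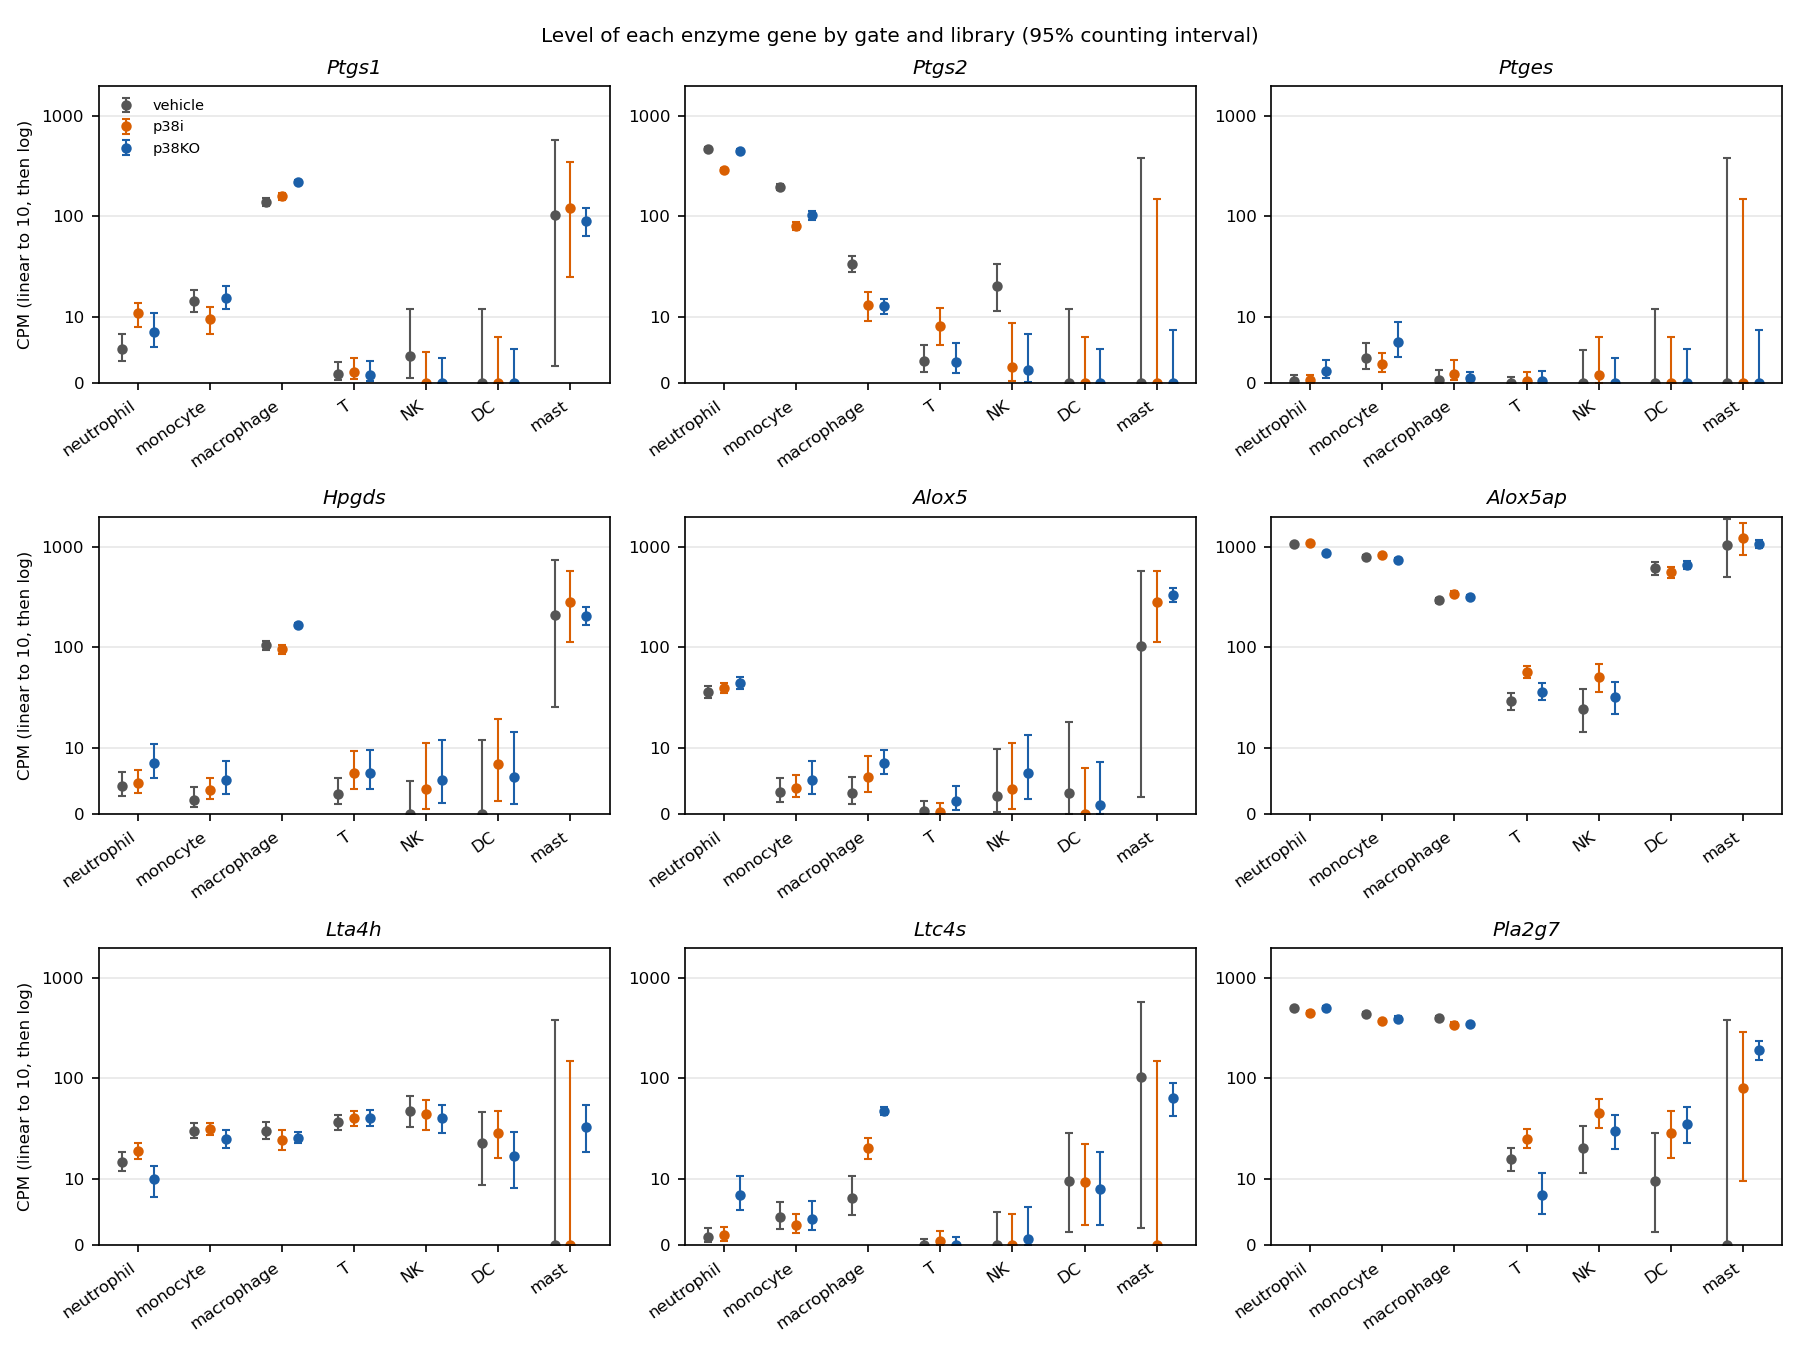
Level of each of the 9 genes in the 7 gates, in CPM (axis linear to 10 and logarithmic above), for the vehicle, p38i and p38KO libraries. Points are single pooled libraries and bars the 95% counting interval. Ptgs2 peaks in neutrophils, Ptgs1 and Hpgds in macrophages and mast cells, and Alox5ap and Pla2g7 extend over neutrophils, monocytes and macrophages.

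**Figure D2:**
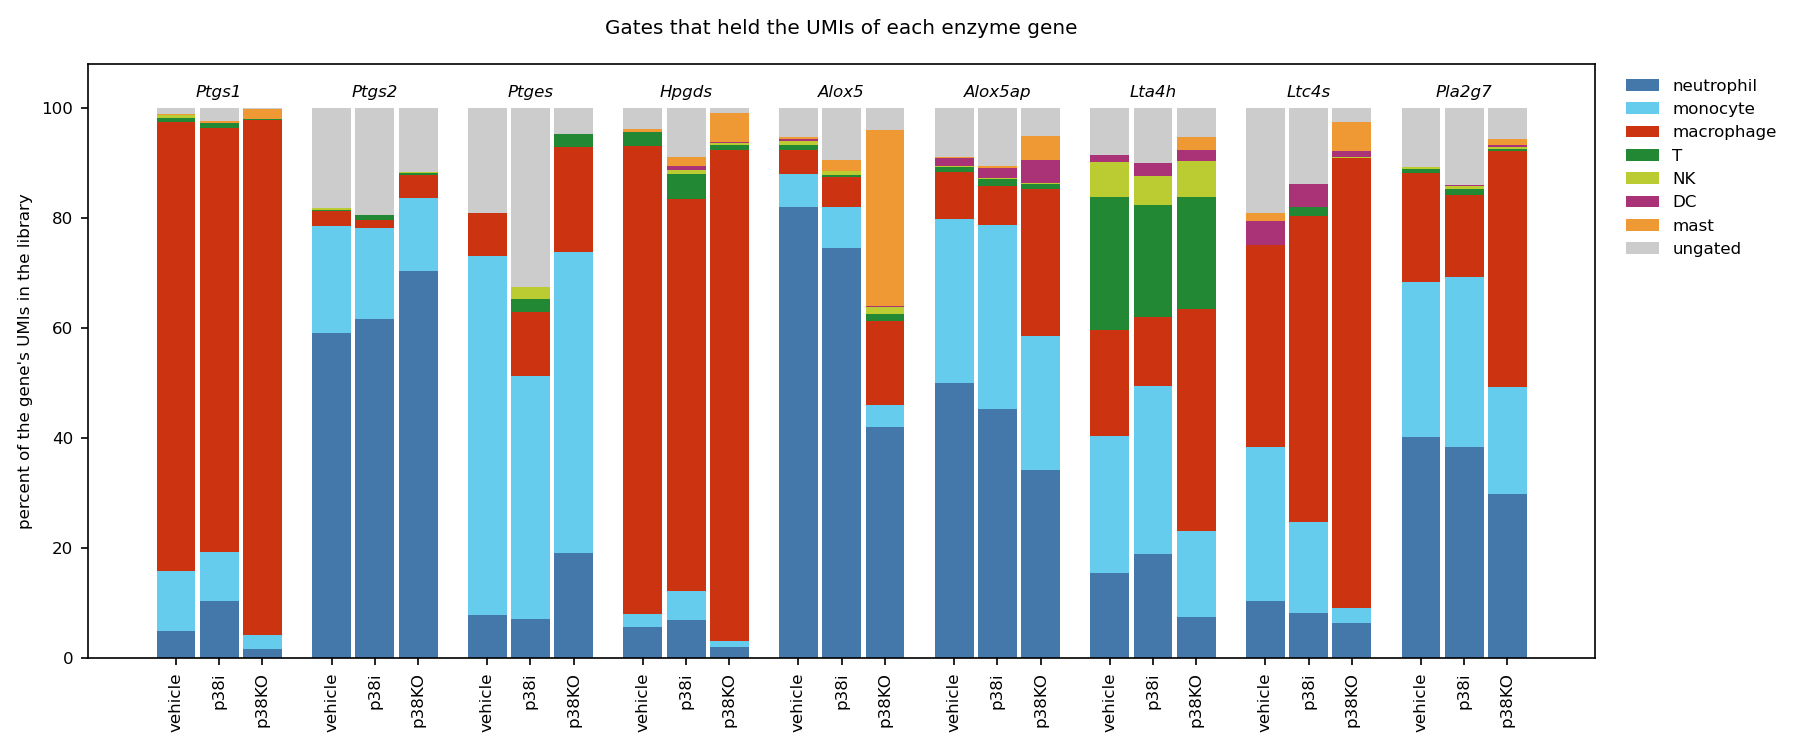
Share of the UMIs of each gene (percent of its UMIs in the library) held by each gate, 1 stacked bar per library. Macrophages give 81.6%, 77.0% and 93.7% of Ptgs1 and 36.8%, 55.7% and 81.9% of Ltc4s, and the mast gate of the p38KO library gives 32.1% of Alox5.

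The p38i and vehicle libraries were compared to ask how these genes differed inside each cell type when the p38 inhibitor was given to the whole mouse. Ptgs2 was lower in the p38i library in neutrophils, monocytes and macrophages, while Alox5ap, Alox5, Lta4h, Hpgds and Pla2g7 were not called in any of these gates. A difference was called where the log2 ratio of CPM was at least 0.5 either way, its 95% counting interval left out 0 and both libraries together held at least 20 counts. Of 35 member-gate pairs with enough counts 11 were called, 7 higher and 4 lower. Over all genes 9.2% of gene-gate pairs were called by the same rule.

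The neutrophil gate had 2688 Ptgs2 counts in the vehicle and 1931 in the p38i library, a log2 ratio of -0.70 (-0.78 to -0.61), or 1.62-fold lower. In monocytes the counts were 888 and 519 and the log2 ratio -1.29 (-1.45 to -1.13), 2.45-fold lower, and in macrophages 118 and 44 with -1.37 (-1.91 to -0.86), 2.59-fold lower. Ptgs2 was the only 1 of 7 members with enough counts called lower in neutrophils, where 2.95% of all genes were called lower. In the monocyte gate Ptgs2 and Ptgs1 were called lower, of 9 members, against 3.22% of all genes, and in macrophages Ptgs2 alone of 8, against 4.58%. The Ptgs2 calls in neutrophils and monocytes held in each of 8 alternatives of gating, scaling, filter and depth at the same log2 limit, with log2 ratios from -0.79 to -0.59 and from -1.57 to -1.10. The macrophage call was lost with gates that excluded cells with markers of a second type, at -0.62 (-2.21 to 0.84) from 19 counts in all. It was also lost after thinning, at -1.97 (-5.27 to 0.43) from 9. In the macrophage gate 1 vehicle cell held 21 of the 118 Ptgs2 counts and 1 p38i cell 6 of the 44.

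Immediate-early and heat-shock genes, listed for their response to tissue dissociation, were summed to set beside Ptgs2. The summed level of 10 such genes, among them Fos, Jun, Egr1 and Hspa1a, all detected in the 3 large myeloid gates, was 7657, 4835 and 7384 CPM in neutrophils, 4071, 2463 and 2722 in monocytes, and 1394, 902 and 1038 in macrophages. In each of these gates the library with the lowest sum was p38i, and the p38KO sum was close to vehicle in neutrophils and nearer p38i in monocytes and macrophages. The paper states that tumors were digested in the cold to avoid expression signatures of collagenase and heat stress. In these sums the treatment and the handling of a library cannot be told apart. The part of these 10 genes in the Ptgs2 values was not tested.

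Ptgs1 was higher in p38i neutrophils, with 29 counts in vehicle and 72 in p38i and a log2 ratio of 1.09 (0.45 to 1.76), where 8.42% of all genes were called higher. This call held in 8 of 8 alternatives, from 0.93 to 1.22. In monocytes Ptgs1 was lower at -0.56 (-1.08 to -0.04), with 65 and 63 counts, a call that held in 4 of 8. Macrophage Ptgs1 stood at 0.20 (0.02 to 0.38), under the limit, but was called higher with exclusive gates, at 1.15, and after thinning, at 1.10. No member was called higher in monocytes, where 3.7% of genes were, and Ltc4s alone was in macrophages, at 1.49 (0.81 to 2.22), where 2.9% were. The Ltc4s call rested on 25 and 68 counts, and with exclusive gates 14 counts in all were left and it was not called.

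Alox5ap and Pla2g7 of p38i neutrophils, monocytes and macrophages lay within the limit of vehicle. Alox5ap had log2 ratios of 0.04 (-0.01 to 0.09) in neutrophils, 0.05 (-0.01 to 0.11) in monocytes and 0.22 (0.09 to 0.34) in macrophages. Pla2g7 had -0.16, -0.25 and -0.23 in the same gates, with intervals below 0. Alox5 in neutrophils was at 0.14 (-0.13 to 0.41). By counting error alone, these intervals leave out a difference between the libraries as large as the limit. They hold no spread between mice or libraries. Others were too sparse for that, with Alox5 at 0.28 (-0.69 to 1.30) in monocytes and 0.84 (-0.31 to 2.06) in macrophages, and Lta4h at 0.35 (-0.06 to 0.77) in neutrophils.

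The p38KO and vehicle libraries were compared next, where the loss of p38α is limited to tumor cells but clone, treatment and library differ with it. The paper reports reduced growth of p38KO tumors and of tumors under p38i, and the part of tumor size was not tested. In this comparison 5 of 8 members with enough counts were called in macrophages, Ptgs1, Hpgds, Ltc4s and Alox5 higher and Ptgs2 lower. Of all genes in that gate 9.43% were called higher and 3.14% lower. The 8 macrophage markers summed to 19645, 22503 and 31910 CPM in the same gate, of which Apoe gave 10883, 14098 and 20938. C1qb gave 3373, 3331 and 4023, so the sum mostly follows Apoe. The 8 mast markers there summed to 11.65, 8.83 and 47.3 CPM, with 6, 6 and 0 of them at 0. The part of either list in the calls was not tested. Over 7 gates 12 of 41 member-gate pairs were called, 8 higher and 4 lower, against 12.2% of all gene-gate pairs.

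Ltc4s in macrophages had a log2 ratio of 2.73 (2.14 to 3.37), 6.61-fold higher than vehicle, and this held in 8 of 8 alternatives, from 1.92 to 2.75. Ptgs1 was at 0.68 (0.54 to 0.82), 1.60-fold higher, with 488 counts in vehicle and 2121 in p38KO, and held in 8 of 8, from 0.53 to 1.93. Hpgds was at 0.67 (0.51 to 0.84), 1.59-fold higher, with 368 and 1594 counts, and held in 8 of 8, from 0.64 to 0.79. Alox5 was at 1.29 (0.37 to 2.35) from 11 and 73 counts and held in 5 of 8. At a log2 limit of 1 the Ptgs1 and Hpgds calls were lost and the Ltc4s and Alox5 calls were kept. The thinned share of macrophages with a UMI was 1.75%, 3.67% and 6.59% for Ltc4s and 9.94%, 20.9% and 25.6% for Ptgs1. Before thinning the median macrophage had 18977, 17053 and 13839 UMIs, so the p38KO cells were the shallowest.

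Ptgs2 in p38KO was lower in monocytes, at -0.92 (-1.10 to -0.75), 1.90-fold, with 888 and 386 counts, and in macrophages, at -1.41 (-1.78 to -1.03), 2.65-fold, with 118 and 121 counts. In macrophages 1 vehicle cell held 21 of the 118 Ptgs2 counts and 1 p38KO cell 17 of the 121. The 8 neutrophil markers summed to 11108, 9558 and 3639 CPM in the monocyte gate and to 1282, 1270 and 1366 in the macrophage gate. Of the macrophage sum S100a8 gave 314, 423 and 481 CPM and S100a9 656, 571 and 697. The part of these markers was not tested. The monocyte call held in 8 of 8 alternatives, from -1.02 to -0.56, and the macrophage call was lost with exclusive gates, at -0.87 (-2.15 to 0.41), and after thinning, at -0.31 (-1.63 to 1.18), from 24 and 26 counts in all. In neutrophils the log2 ratio was -0.06 (-0.15 to 0.02), which by counting error alone leaves out a library difference as large as the limit. Median-ratio scaling, which removes the shift of 0.14 of the gate's genes in this comparison, put it at -0.21. Of all genes 2.51% were called lower in monocytes and 10.8% higher, and of 9 members Ptgs2 was lower and Hpgds higher, the latter from 10 and 19 counts at 1.21 (0.03 to 2.47) and lost in 4 of 8 alternatives.

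In p38KO neutrophils Ltc4s was higher at 2.62 (1.42 to 4.03), from 7 and 34 counts, and held in 8 of 8 alternatives. Hpgds was higher at 0.88 (0.09 to 1.69), from 24 and 35 counts, and Lta4h lower at -0.57 (-1.12 to -0.03), from 84 and 45 counts, calls that held in 4 and in 2 of 8. Of all genes in this gate 12.5% were called higher and 2.22% lower. The 8 macrophage markers summed to 529, 680 and 922 CPM in the neutrophil gate, of which Apoe gave 225, 339 and 446. C1qb stood at 0.599%, 0.308% and 1.23% of its macrophage level, and Ltc4s at 17.3%, 7.53% and 16.05%. The part of macrophage RNA in the neutrophil values was not tested.

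**Figure D3:**
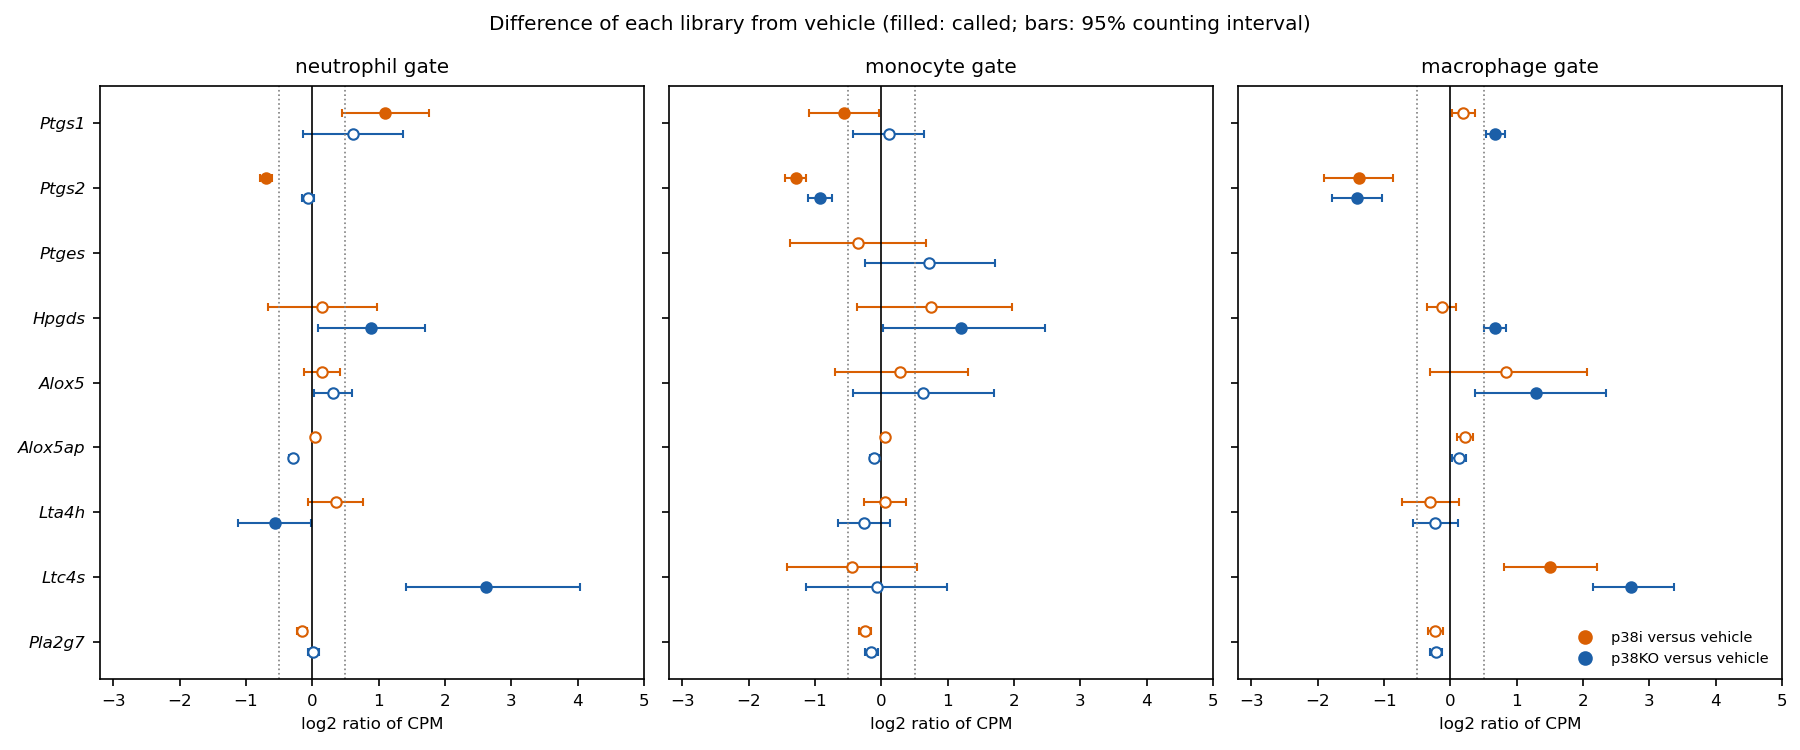
Log2 ratio of CPM to the vehicle library in the neutrophil, monocyte and macrophage gates, for p38i and p38KO, with the 95% counting interval. Filled points were called, open points were not, dotted lines mark 0.5 either way, and genes under 20 counts are left out. Ptgs2 lies left of the line in p38i in each gate, and Ltc4s, Ptgs1 and Hpgds lie right of it in p38KO macrophages.

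Both comparisons share the vehicle library, so their values are set side by side and not counted as 2 findings. The p38KO and p38i libraries were therefore compared directly, where 10 of 42 pairs were called, against 11.9% of all gene-gate pairs. Ptgs2 in neutrophils was higher in p38KO than in p38i at 0.64 (0.54 to 0.73), a call that was lost after thinning at 0.43, and in macrophages the log2 ratio was -0.03 (-0.54 to 0.50). Lta4h in neutrophils was lower in p38KO at -0.92 (-1.44 to -0.41), with 125 counts in p38i and 45 in p38KO. Ltc4s was higher in p38KO macrophages at 1.23 (0.86 to 1.62) and neutrophils at 2.32 (1.27 to 3.50), and Hpgds in macrophages at 0.80 (0.63 to 0.98). In monocytes Ptgs1 was higher at 0.68 (0.14 to 1.21) and Ptges at 1.07 (0.13 to 2.03), each held in 5 of 8 alternatives. The Lta4h and Ltc4s calls held in 8 of 8, and the Hpgds call in 7. In T cells Ptgs2 at -1.39, Alox5ap at -0.66 and Pla2g7 at -1.74 were lower in p38KO. Their counts in p38i and p38KO were 29 and 10, 194 and 111, and 85 and 23. These T cell calls held in 3, 5 and 5 of 8 alternatives.

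The calls outside neutrophils, monocytes and macrophages were few in counts. In p38i T cells Ptgs2 was higher with 12 and 29 counts, Alox5ap with 106 and 194 and Pla2g7 with 57 and 85, and in NK cells Alox5ap with 18 and 40 and Pla2g7 with 15 and 36. In p38KO Pla2g7 was lower in T cells with 57 and 23 counts and higher in DCs with 3 and 25. Each of these 7 calls was lost in at least 2 alternatives. In p38i NK cells 1 cell held 24 of the 36 Pla2g7 counts and 1 cell 13 of the 40 Alox5ap counts. In p38i T cells the highest cell held 7 of the 29 Ptgs2, 16 of the 194 Alox5ap and 15 of the 85 Pla2g7 counts. For Pla2g7 it held 14 of 57 in vehicle T cells and 6 of 25 in p38KO DCs. The counting intervals treat UMIs of 1 cell as independent. In each library the 3 genes were higher in neutrophils and monocytes than in the T, NK and DC gates, and Pla2g7 was so in macrophages too. The 8 neutrophil markers summed to 804, 1613 and 824 CPM in the T gate, to 660, 397 and 191 in the NK gate and to 306, 531 and 180 in the DC gate. Within the T gate they were highest in p38i, where the 3 genes were called higher. In p38i NK cells and p38KO DCs the neutrophil marker sums were lower than in vehicle, while the genes called there were higher. The 8 macrophage markers summed to 143, 197 and 229 CPM in the T gate and to 263, 191 and 325 in the NK gate. In the DC gate they summed to 45.0, 313 and 210. They were thus higher than in vehicle in p38KO DCs, where Pla2g7 was called higher, and lower in p38i NK cells. The 8 monocyte markers summed to 871, 1146 and 634 CPM in the T gate. In the NK gate they summed to 1572, 1629 and 1294 and in the DC gate to 1392, 1446 and 1207. Within the T gate the monocyte markers were highest in p38i and lowest in p38KO, as Pla2g7 was. In p38KO DCs the monocyte markers were lower than in vehicle, while Pla2g7 was called higher. In the T gate S100a9 was at 0.442%, 0.739% and 0.531% of its neutrophil level while Ptgs2 was at 0.698%, 2.93% and 0.722%. The part of neutrophil, monocyte or macrophage RNA in these values was not tested.

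The amount of each transcript per library depends on the cells it holds as well as on the level in them, and fewer cells of a type and less RNA per cell cannot be told apart in a library total. Macrophages gave 16.9%, 14.0% and 39.2% of the UMIs and neutrophils 27.4%, 27.4% and 18.5%. Over all kept cells Ptgs1 was at 28.8, 29.0 and 92.9 CPM, Hpgds at 20.8, 18.8 and 73.3, Ltc4s at 3.27, 5.04 and 22.5, and Ptgs2 at 219, 130 and 119.

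For p38KO, the vehicle levels weighted by the p38KO gate shares gave a log2 ratio of 1.06 for Ptgs1, while the p38KO levels weighted by the vehicle shares gave 0.61 and the library itself 1.69. For Hpgds the same values were 1.17, 0.72 and 1.82. Ltc4s differed, with 0.93 from the shares, 1.91 from the levels and 2.78 in the library. Its value from the shares leans on the vehicle mast level of 104 CPM, from 1 count in 3 cells. That level was weighted by the p38KO mast share of 1.89% of UMIs. Ptgs2 gave -0.53 from the shares, -0.30 from the levels and -0.88 in the library. For p38i the Ptgs2 values were 0.08 from the shares, -0.82 from the levels and -0.76 in the library.

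Cells inside a gate were split by a second gene to see whether Ptgs2 differed in all of them, with splits chosen after values were seen. Splits by Ccl3, F3 and Cxcr2 in neutrophils, Arg1 in monocytes and Mrc1 in macrophages are given. Splits by Ifit1 with Rsad2 in neutrophils and by Chil3 and Ccl3 in monocytes were also made and are not given. The same holds for Mki67 with Top2a, H2-Aa and Arg1 in macrophages. In neutrophils with a UMI of the chemokine gene Ccl3, 31.3%, 27.3% and 33.1% of the gate, Ptgs2 was at 789 (730 to 851), 518 (472 to 568) and 550 (500 to 603) CPM after thinning. In those without it was at 421 (392 to 452), 297 (275 to 320) and 448 (416 to 481). The p38i library lay below vehicle in both, and p38KO lay below vehicle only in cells with Ccl3. With F3, the tissue factor gene, the levels were 928, 411 and 630 CPM, and without it 487, 350 and 459. With the receptor gene Cxcr2 they were 537, 363 and 509, and without it 535, 344 and 389.

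Alox5ap ran opposite to Ptgs2 in the Ccl3 split, at 630, 677 and 534 CPM with Ccl3 and 1165, 1097 and 1069 without. Pla2g7 was at 488, 434 and 452 CPM with Ccl3 and 556, 478 and 570 without. In monocytes with a UMI of Arg1, the arginase gene, Ptgs2 was at 319, 124 and 180 CPM, and in those without at 157, 80.5 and 102. In macrophages with the mannose receptor gene Mrc1, 33.9%, 36.6% and 45.4% of the gate, Ltc4s was at 34.5, 38.1 and 86.5 CPM from 3, 4 and 34 counts, and without it at 5.90, 16.5 and 36.0 from 1, 3 and 17. Hpgds was at 103, 143 and 183 CPM with Mrc1 and 82.6, 88.1 and 131 without.

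**Figure D4:**
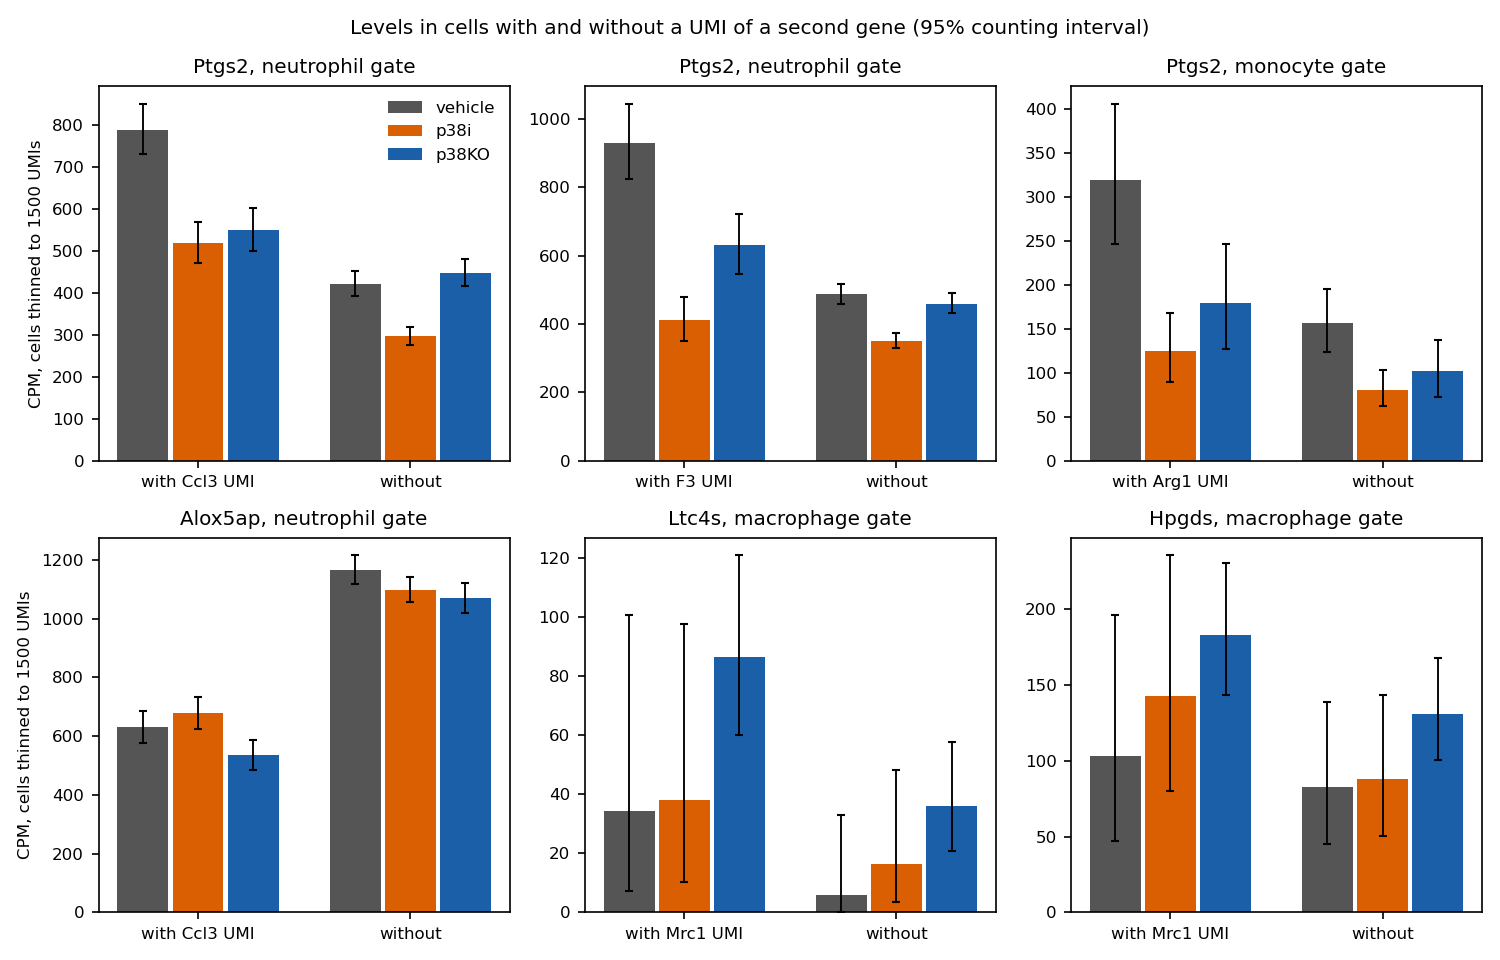
Levels in cells with and without a UMI of a second gene, in CPM after each cell was thinned to 1500 UMIs, per library with the 95% counting interval. The panels show Ptgs2 in neutrophils and monocytes, Alox5ap in neutrophils, and Ltc4s and Hpgds in macrophages. Ptgs2 is higher and Alox5ap lower in neutrophils with Ccl3.

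The other 54 genes of the pathway were counted by group. The alternatives of gating, scaling, filter and depth were run for the 9 members only, so no call of these 54 was checked in them. In p38i, of 28 with enough counts in neutrophils 3 were higher and 1 lower, of 29 in monocytes 1 was higher and 2 lower, and of 27 in macrophages 2 were higher. In p38KO against vehicle the numbers were 7 higher and 3 lower of 26, 3 and 4 of 30, and 3 and 4 of 27. Over all genes the shares higher and lower were 8.42% and 2.95% in p38i neutrophils, 3.7% and 3.22% in monocytes and 2.9% and 4.58% in macrophages, and in p38KO 12.5% and 2.22%, 10.8% and 2.51%, and 9.43% and 3.14%. The median log2 ratio in p38KO neutrophils was 0.38, against 0.16 over all genes tested, and in macrophages 0.03 against 0.07. Of the other lipoxygenases none had enough counts in neutrophils, monocytes or macrophages, and Alox8, with the most UMIs of them, had 1, 1 and 2 counts in the neutrophil gate and 0, 1 and 4 in the macrophage gate.

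Among enzymes that release the substrate, Pla2g4a, cytosolic phospholipase A2, was at 72.8, 74.8 and 50.2 CPM in monocytes and 75.6, 58.6 and 52.8 in macrophages. It was called lower in p38KO in both, at -0.54 and -0.52, and higher in p38i neutrophils at 0.90 (0.41 to 1.41). Pla2g15 was higher in p38KO macrophages at 0.54.

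Among the other prostanoid synthases Ptges3, which had the most UMIs, was at 75.2, 84.7 and 75.1 CPM in neutrophils and was not called in neutrophils, monocytes or macrophages. Tbxas1, thromboxane synthase, at 0.97, and the reductases Cbr1, at 1.25, and Akr1b3, at 0.81, were higher in p38KO neutrophils, from 20 and 31, 9 and 17, and 39 and 54 counts. Ptges2 was higher in p38i macrophages at 0.79. Of the breakdown enzymes Ptgr2 was higher in p38i macrophages at 0.52 and in p38KO monocytes at 0.55, and Ptgr1 in p38i monocytes at 0.56.

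Of the prostaglandin E2 receptors, Ptger4 was higher in p38KO monocytes at 0.68 (0.19 to 1.18) and macrophages at 0.68 (0.30 to 1.08). Ptger2 was higher in p38KO neutrophils at 1.00 (0.40 to 1.62) and lower in macrophages at -0.93. Of the leukotriene receptors, Ltb4r1, which binds leukotriene B4, was at 370, 379 and 280 CPM in neutrophils, and in p38KO was lower in monocytes at -0.53 (-0.65 to -0.42) and macrophages at -1.03 (-1.29 to -0.78). The part of neutrophil RNA in the Ltb4r1 values of monocytes and macrophages was not tested. Cysltr1 was higher in p38i neutrophils at 0.72.

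Among the genes that convert leukotrienes further, Dpep2, a dipeptidase that acts on leukotriene D4, was at 11.9, 5.88 and 3.77 CPM in neutrophils, 37.8 in vehicle against 26.7 in p38KO monocytes and 23.3 in vehicle against 16.1 in p38KO macrophages. It was called lower in neutrophils at -1.02 and -1.67, in monocytes at -0.54 and -0.50 and in p38KO macrophages at -0.53. Cyp4f18, which oxidises leukotriene B4, had the most UMIs of this group, at 269, 231 and 408 CPM in neutrophils, and was higher in p38KO neutrophils at 0.60 (0.50 to 0.70) and lower in p38i monocytes at -0.54. Ggt1 was at 5.80, 13.6 and 1.55 CPM in neutrophils, higher in p38i at 1.23 and lower in p38KO at -1.90. In p38KO Mgst3 at 1.51 and Abcc1 at 0.73 were higher and Mgst2 at -1.35 lower in neutrophils, Mgst2 at 2.33 was higher and Ggt5 at -1.06 lower in monocytes, and Ggt5 was higher in macrophages at 0.69.

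Of the platelet-activating factor group, the receptor gene Ptafr had the most UMIs, at 471, 352 and 610 CPM in neutrophils, and no gene was called against vehicle in neutrophils, monocytes or macrophages.

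Between p38KO and p38i directly, of 27 of these genes with enough counts in neutrophils 5 were higher and 5 lower in p38KO, of 30 in monocytes 4 and 2, and of 27 in macrophages 3 and 3. Over all genes the shares higher and lower were 11.8% and 5.61% in neutrophils, 9.82% and 2.6% in monocytes and 10.4% and 2.87% in macrophages. In neutrophils Tbxas1 at 1.60, Cyp4f18 at 0.82, Ptafr at 0.80, Ptger2 at 0.65 and Ggt5 at 0.61 were higher, and Ggt1 at -3.13, Mgst2 at -1.44, Ptgr2 at -0.99, Cysltr1 at -0.69 and Pla2g4a at -0.51 lower. In monocytes the thromboxane receptor gene Tbxa2r at 1.65, Mgst2 at 1.19, Ptger4 at 1.09 and Cyp4f18 at 0.51 were higher, and Ltb4r1 at -0.58 and Pla2g4a at -0.58 lower. In macrophages Ggt5 at 0.94, Ptger4 at 0.55 and Lpcat2, which makes platelet-activating factor, at 0.51 were higher, and Ltb4r1 at -1.34, Ptger2 at -1.06 and Pafah1b3 at -0.64 lower. The leukotriene B4 receptor gene Ltb4r1 and the prostaglandin E2 receptor gene Ptger4 thus lay on opposite sides in both monocytes and macrophages of the p38KO library. Ptger2, also a prostaglandin E2 receptor gene, lay on the side of Ltb4r1 in macrophages. The 8 neutrophil markers summed to 11108, 9558 and 3639 CPM in the monocyte gate. In the macrophage gate they summed to 1282, 1270 and 1366 CPM. Of that sum S100a8 gave 314, 423 and 481 CPM and S100a9 656, 571 and 697, so it says little of the other markers. The part of the 8 neutrophil markers in the Ltb4r1 values was not tested.

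The genes most like 3 of the members over the gates were listed as a description, by Pearson r of log2(CPM + 10) over 21 points, the 7 gates of 3 libraries, which share libraries and depth. Of 4156 genes, Fpr2 at 0.98, Clec4d at 0.97 and Ptafr at 0.97 were closest to Ptgs2. Csf2rb at 0.96, Tctex1d2 at 0.95 and Slc6a6 at 0.93 were closest to Alox5ap. Npl at 0.97, Tgfbr1 at 0.93 and Ptgs1 at 0.93 were closest to Hpgds, so the cyclooxygenase gene nearest to Hpgds in pattern was Ptgs1.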

How the data were processed

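The authors aligned reads of the 10x Genomics 3′ assay with Cell Ranger (6.0.0 in the file headers; mm10 per the labels) and deposited UMI counts per gene and barcode, not normalized. The labels name v2 chemistry and the paper v3.1, and they differ on how many cells were sorted. Cells with at least 1500 UMIs, 300 genes and at most 20% mitochondrial UMIs were kept. Gates were applied in order to raw counts: Mcpt2 + Cpa3 of at least 10 (mast), C1qa of at least 3 and above Csf3r + Cxcr2 (macrophage), Cd3e (T), Ncr1 (NK), Flt3 (DC), Csf3r + Cxcr2 of at least 2 and above Ly6c2 + Fn1 (neutrophil), and Ly6c2 + Fn1 of at least 3 (monocyte). T, NK and DC cells had at most 1 UMI of Csf3r + Cxcr2, and DCs had under 3 of Ly6c2 + Fn1. Counts were summed per library and gate. CPM carry exact Poisson, log2 ratios exact conditional binomial (0.5 for a count of 0) and shares exact Clopper-Pearson 95% intervals, which cover counting error only. With 1 library per group no test was made. The members and gene lists were chosen with earlier results of these data known. All members were named. Of other pathway genes, those called in a neutrophil, monocyte or macrophage comparison and the one of each group with the most UMIs were named. The alternatives were looser, stricter, exclusive and marker-panel gates, no cell filter, median-ratio scaling, thinning to 1500 UMIs (seed 1), a log2 limit of 1, no count minimum and, chosen after seeing the data, only cells without Csf3r or Cxcr2 UMIs outside the neutrophil gate. Scripts were tested on simulated data. Tools were Python 3.11.15, numpy 2.4.6, scipy 1.17.1, pandas 2.3.3 and matplotlib 3.10.9.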

Additional observations from a re-analysis of the deposited data

Results flagged for a closer look

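These values stood out because calls of 1 comparison pointed opposite ways in different gates, and in each case the difference between the gates was not tested. In p38i against vehicle, Ptgs1 had a log2 ratio of 1.09 in neutrophils and -0.56 in monocytes. In the same comparison Ptgs2 was at -0.70 in neutrophils, -1.29 in monocytes and -1.37 in macrophages but at 1.37 in T cells, from 12 and 29 counts. In p38KO against vehicle, Pla2g7 was at -1.06 in T cells and 1.85 in DCs, the latter from 3 and 25 counts. In p38KO against p38i, Ptgs2 was at 0.64 in neutrophils and -1.39 in T cells, from 29 and 10 counts.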

How the results depend on the processing

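No paired analysis was possible because each group was 1 library, and no library could be left out. The counts of member-gate pairs called were 11 for p38i against vehicle, 12 for p38KO against vehicle and 10 for p38KO against p38i. They were 7, 7 and 5 at a log2 limit of 1, and 4, 6 and 4 after thinning to 1500 UMIs, which left fewer counts. For p38i against vehicle 7 were called with exclusive gates and 6 with only cells without Csf3r or Cxcr2 UMIs outside the neutrophil gate, an alternative chosen after seeing the data, and for p38KO against p38i 18 with marker-panel gates. Other settings kept these counts within 1.5 times. At the main settings 9.2%, 12.2% and 11.9% of all gene-gate pairs were called in the same 3 comparisons. The alternatives were run for the members only, so their counts have no share over all genes to be read against.

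Called log2 ratios that changed sign were these. With stricter gates, Pla2g7 in T cells was at 0.070 (p38KO against vehicle). With exclusive gates, p38i against vehicle, Alox5ap was at -1.40 in T and -1.20 in NK cells and Pla2g7 at -3.202 in NK cells, and Alox5ap in T cells was at 1.21 (p38KO against p38i). With marker-panel gates, p38i against vehicle, Ptgs2 was at -0.091 in T and Pla2g7 at -0.34 in NK cells, and in p38KO against vehicle Hpgds was at -0.045 in monocytes and Pla2g7 at -0.084 in DCs. After thinning, Pla2g7 in p38i T cells was at -0.25, and without Csf3r or Cxcr2 UMIs Ptgs1 in p38i monocytes was at 0.39. The cause was not tested. Median-ratio scaling moved neutrophil ratios by 0.09 in p38i and 0.14 in p38KO and reversed no call. The mast gates of vehicle and p38i, with 9606 and 24967 UMIs, and Ptges set the limits of depth.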

Other observations

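The ungated cells also held these transcripts. Ptgs2 was at 356 (332 to 381), 209 (193 to 227) and 255 (228 to 283) CPM in them, Alox5ap at 468, 588 and 447 CPM and Pla2g7 at 327, 375 and 322 CPM. The marker panel placed 462, 536 and 273 of them in its neutrophil gate. Carcinoma markers, 5 genes among them Epcam and Krt8, summed to 26.9, 35.03 and 61.8 CPM over all kept cells.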
